A study of Homo sapiens with 13 samples.

Results

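COSMIC-seq captured the genomic DNA that biotin-tagged polyamides had been crosslinked to in living H1 cells, a long-established line of human embryonic stem cells. The regions described here are the autosomal peaks of the deposited lists whose midpoint lay within 10 Mb of a chromosome end. They numbered 638 of the 6064 peaks in all 4 lists, and of the 5938 peaks on the 22 autosomes. Both ends of a chromosome were used, except on chromosomes 13, 14, 15, 21 and 22, where the long-arm end alone was used, which gave 39 ends of 10 Mb each. The rule used position and no peak score or count.

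The lists belong to compounds 2 and 4, which both carried psoralen for crosslinking and biotin for capture. By the structures in the labels, compound 2 folds back on itself as a hairpin and compound 4 is a linear chain. Cells grown in E8 medium on Matrigel received a compound for 24 h at 20 nM or 400 nM, with 2 libraries for each compound and dose, and 1 input library was made. Each compound has a 400 nM list and a list that names no dose, called the undosed list below. Compound 2 contributed 50 end regions from its undosed list and 114 from its 400 nM list, and compound 4 contributed 311 and 163. Because each list stands alone, no value has a replicate error. The precision is given as exact (Clopper-Pearson) 95% intervals over peaks, which cover counting error only and count neighbouring peaks as independent. Read depth behind the lists is unknown.

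A human chromosome ends in a telomere, a long array of a short repeat, and just inside it lie subtelomeric stretches in which many chromosomes carry near-identical duplicated segments. Farther in, the outer megabases of many arms are rich in genes and in G and C bases, and stain light with Giemsa. Polyamides read the minor groove of DNA through N-methylpyrrole and N-methylimidazole rings, so the density of their matching sites can differ between such regions.

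Compound 4 peaks were scarcer near chromosome ends than length alone gave. The 39 end regions make up 390 Mb, or 13.5% of autosome length. They held 311 of 3008 autosomal peaks of the undosed compound 4 list (10.3%, exact 95% interval 9.27 to 11.5%), where 407 stood for an even spread. In the 400 nM compound 4 list they held 163 of 1541 (10.6%, 9.09 to 12.2%), where an even spread gives 209. These shares are 0.764-fold (0.685 to 0.848) and 0.781-fold (0.671 to 0.903) of the share of length, and both intervals lie below 1. The 400 nM value lost this when the upper 50% of the list by score was used, at 0.883-fold (0.720 to 1.07), and when the distance was 20 Mb, at 0.918-fold (0.839 to 1.001). Without centromeric, variable and stalk bands and acrocentric short arms, the values were 0.712-fold (0.639 to 0.791) undosed and 0.739-fold (0.635 to 0.853) at 400 nM. Length includes unsequenced stretches, which were not measured inside the end regions.

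At 10 Mb the intervals of both compound 2 lists reached the share of length, so a difference from length was not settled. The undosed compound 2 list had 50 of 475 autosomal peaks near the ends (10.5%, 7.91 to 13.6%, or 0.778-fold of length), and its interval just reaches the share of length. That interval lay wholly below length when any 1 of chromosomes 2, 7, 13, 15, 17, 18, 19 and 21 was left out. It did so too without centromeric, variable and stalk bands and acrocentric short arms (0.737-fold, 0.554 to 0.955), and barely away from centromeres (0.773-fold, 0.582 to 0.9998). It reached length for the upper 50% by score (0.904-fold, 0.617 to 1.26) and at 20 Mb (0.894-fold, 0.754 to 1.05). The reading of this list is thus not firm, and its 0.778-fold is close to the compound 4 values. Its 400 nM list had 114 of 914 (12.5%, 10.4 to 14.8%, or 0.921-fold). After peaks of a list within 1 kb were merged into loci, the shares were 10.8% (44 of 406 loci, 7.99 to 14.3%) and 12.9% (105 of 817, 10.6 to 15.3%) for undosed and 400 nM compound 2. Merged loci of compound 4 gave 10.2% (280 of 2748, 9.08 to 11.4%) undosed and 10.3% (139 of 1353, 8.71 to 12.0%) at 400 nM. Counting loci in place of peaks thus left each list on the same side of the length share, with the same reading of its interval.

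**Figure D1:**
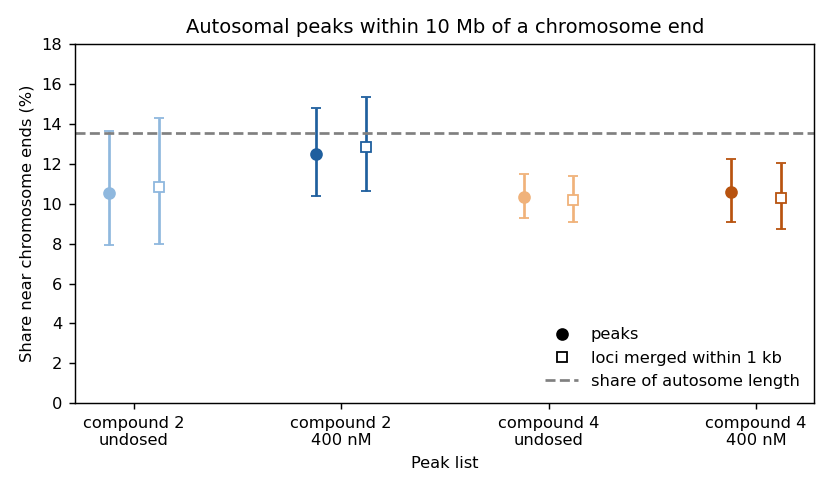
Share of autosomal peaks (filled circles) and of loci merged within 1 kb (open squares) that lay within 10 Mb of a chromosome end, in percent, for each peak list; bars are exact 95% intervals and the dashed line is the share of autosome length, 13.5%. Both compound 4 lists sit at 10.2 to 10.6% with intervals below the line, while the intervals of both compound 2 lists reach it. The undosed compound 2 shares, 10.5% of peaks and 10.8% of loci, are close to those of compound 4.

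The lists were then set against each other. At 400 nM the share near the ends was 1.90 percentage points lower for compound 4 than for compound 2, with a Newcombe 95% interval of the difference from -4.61 to 0.677 points, so these lists could not be told apart. Loci merged within 1 kb gave a difference of -2.58 points (-5.47 to 0.161). The interval lay below 0 when peaks within 5 Mb of a centromere were left out, at -3.25 points (-6.40 to -0.287). It also lay below 0 without chromosome 10, at -3.18 points. That chromosome held 123 of the 914 autosomal peaks of the 400 nM compound 2 list, of which 6 were near its ends. In the undosed lists compound 4 minus compound 2 was -0.187 points (-3.44 to 2.51). Within a compound, 400 nM minus undosed was 1.95 points (-1.72 to 5.31) for compound 2 and 0.238 points (-1.60 to 2.17) for compound 4. None of these intervals shows that the shares are alike, and that for compound 2 allows a difference of up to 5.31 points. The lists of 1 compound may also share libraries, which is not stated.

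The lowest compound 4 values, relative to length, were in the outermost megabases. Between 0 and 1 Mb from the end the undosed compound 4 list had 24 peaks (0.798% of its autosomal peaks, 0.512 to 1.18%), against 1.35% of length, or 0.589-fold. The 1 to 2 Mb stretch held 24 as well. From 2 to 5 Mb it had 99 peaks (0.810-fold) and from 5 to 10 Mb 164 (0.806-fold), and from 10 to 20 Mb the 427 peaks were at 1.05-fold of length (14.2%, 13.0 to 15.5%, against 13.5%). The 400 nM compound 4 list gave 14 peaks (0.671-fold), 13 (0.623-fold), 52 (0.831-fold), 84 (0.805-fold) and 220 (1.05-fold) over the same stretches. In both lists the interval for the outermost 2 Mb lay below 1, at 0.589-fold (0.435 to 0.779) undosed and 0.647-fold (0.428 to 0.938) at 400 nM. This was not particular to the outermost stretch. Undosed compound 4 was also below length from 2 to 5 Mb (3.29%, 2.68 to 3.99%, against 4.06%) and from 5 to 10 Mb (5.45%, 4.67 to 6.32%, against 6.77%), and in steps of 2 Mb its interval from 6 to 8 Mb lay below 1 as well (0.663-fold, 0.499 to 0.863). At 400 nM the 5 to 10 Mb share was below length (5.45%, 4.37 to 6.70%) and the 2 to 5 Mb interval reached it (3.37%, 2.53 to 4.40%). A difference between the outermost stretch and the rest of the 10 Mb was not tested.

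Compound 2 showed no common order with distance. Its 400 nM list had 15 peaks in the outermost Mb (1.64%, 0.921 to 2.69%, or 1.21-fold), 8 from 1 to 2 Mb (0.647-fold), 34 from 2 to 5 Mb (0.916-fold) and 57 from 5 to 10 Mb (0.921-fold). The undosed list had only 2 peaks in the outermost Mb (0.421%, 0.0510 to 1.51%), then 7, 10 and 31, and 65 from 10 to 20 Mb (1.01-fold). Over the outer 5 Mb as a whole the undosed compound 2 list was at 0.591-fold of length (19 peaks, 0.358 to 0.913), an interval below 1 that the 10 Mb share did not have. The median distance from the end ranged from 4.98 Mb (400 nM compound 2) to 5.61 Mb (undosed compound 2), with both compound 4 lists between, so peaks of every list reached over the whole 10 Mb.

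**Figure D2:**
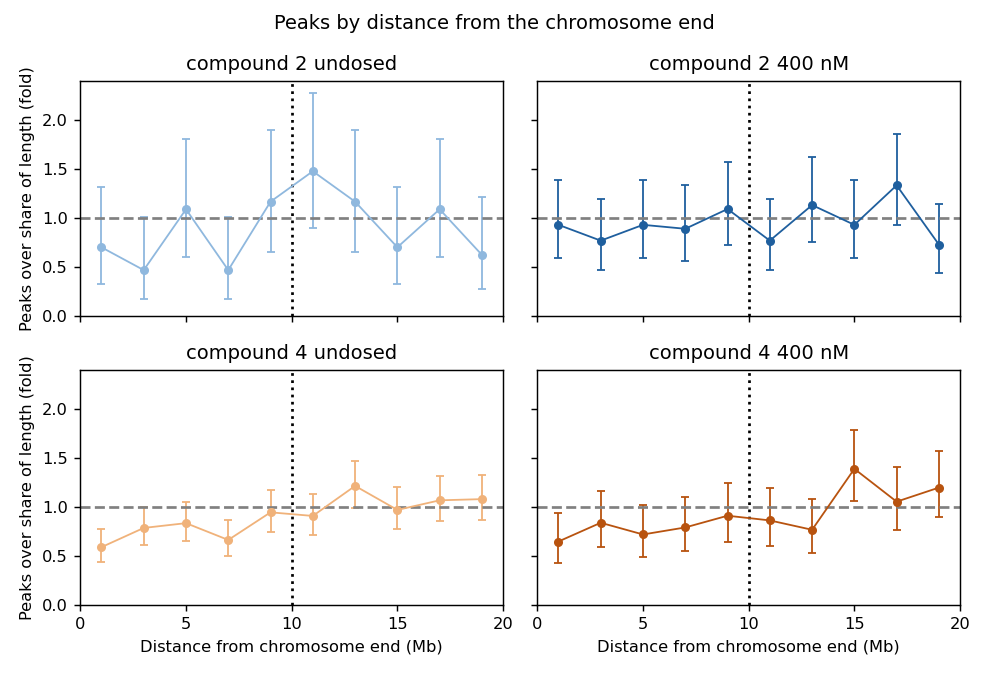
Peaks in steps of 2 Mb from the chromosome end, as a fold of the share of autosome length in that step, for each list; bars are exact 95% intervals, the dashed line marks 1 and the dotted line the 10 Mb limit. Both compound 4 lists start below 1 (0.589-fold and 0.647-fold in the first step), and the compound 2 intervals are wide.

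The peaks closest to a telomere were not among the highest-scoring of their lists. The undosed compound 4 peak nearest to an end lay 0.0662 Mb from the end of the short arm of chromosome 4, in 4p16.3 (chr4:65965-66534, rank 1009 by score), and the 400 nM list had its own nearest peak at the same place (chr4:65899-66502, rank 1444). For compound 2 the nearest were in 20p13 (chr20:121845-122460, undosed, rank 292) and in 21q22.3 (chr21:48057372-48057947, 400 nM, rank 761). At the 10 Mb limit, the last compound 2 peaks inside lay at 9.81 Mb (undosed) and 9.86 Mb (400 nM) and the first outside at 10.01 Mb in each list. For compound 4 the last inside were at 9.997 Mb (undosed, 18p11.22, rank 1649) and 9.95 Mb (400 nM, 2q37.1, rank 827). The first outside were at 10.10 Mb (undosed, 10q26.13, rank 1777) and 10.05 Mb (400 nM, 17p13.1, rank 740).

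Giemsa staining was read from the reference band at each peak's midpoint, and it was not used to choose the end regions. Light (gneg) bands take 62.7% of the end regions and 39.2% of the other autosomal sequence. Of the end regions, 173 of 311 undosed compound 4 peaks lay in light bands (55.6%, 49.9 to 61.2%), below the share of length, beside 42.2% of all autosomal peaks of that list. The other lists gave 100 of 163 (61.3%, 53.4 to 68.9%) for 400 nM compound 4, 27 of 50 (54.0%, 39.3 to 68.2%) for undosed and 67 of 114 (58.8%, 49.2 to 67.9%) for 400 nM compound 2, with intervals that include 62.7%. Over all autosomal peaks of these lists, 48.2%, 38.3% and 39.2% were in light bands. End peaks were thus more often in light bands than peaks elsewhere, as end sequence is.

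The compound 4 shortfall was present within each kind of band, in a comparison added after the data were seen. Counting light bands alone, where the ends take 20.0% of length, 173 of 1268 undosed and 100 of 742 400 nM compound 4 peaks lay near the ends, which is 0.681-fold (0.589 to 0.781) and 0.673-fold (0.554 to 0.806). In dark bands, of which the ends take 10.1%, 138 of 1712 and 63 of 764 did so, at 0.799-fold (0.675 to 0.937) and 0.817-fold (0.634 to 1.03). The last of these intervals reaches 1. The difference between light and dark bands was not tested. For compound 2 all 4 intervals of this kind reached 1, with values from 0.740-fold to 0.963-fold.

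Peaks were spread over most chromosome ends, with a few ends set apart. The end of 20p, the short arm of chromosome 20, had the most compound 4 peaks in both lists, with 23 undosed (20 merged loci) and 12 at 400 nM (8 loci), where its length gave 10.4 and 5.35. Counted in merged loci, 20p stayed first in the undosed list, but at 400 nM it shared its 8 loci with 7p and 22q. Compound 2 had 1 and 3 peaks at 20p. The next ends of the undosed compound 4 list were 11q with 18 peaks, 1q and 7p with 13 each and 10p with 12. Those of its 400 nM list were 7p and 22q with 9 each, and 1p and 11q with 8 each. The undosed compound 4 list had from 2 to 23 peaks per end, with a median of 7, and no end without a peak.

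The end of 7p had more peaks than its length gave in every list, though only slightly so for undosed compound 4. It had 6 undosed and 8 400 nM compound 2 peaks (1.65 and 3.17 from length), and 13 and 9 compound 4 peaks (10.4 and 5.35 from length). The compound 4 counts are 1.25-fold and 1.68-fold of length. For 400 nM compound 2 it shared first place with 15q (8 peaks, 7 merged loci), ahead of 2p, 5p, 6q and 12q with 6 each. For undosed compound 2 it was followed by 18p with 5 peaks (3 loci), 1q with 4, and 2p, 17p and 21q with 3 each. The ends were picked as the highest of 39, so these counts are a description. All 4 lists had a peak at 24 of the 39 ends, and no end was empty in all of them. The end of 9q had none for compound 2, with 7 and 5 for compound 4, and that of 5p had 0, 6, 8 and 0 in the order undosed compound 2, 400 nM compound 2, undosed compound 4 and 400 nM compound 4.

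**Figure D3:**
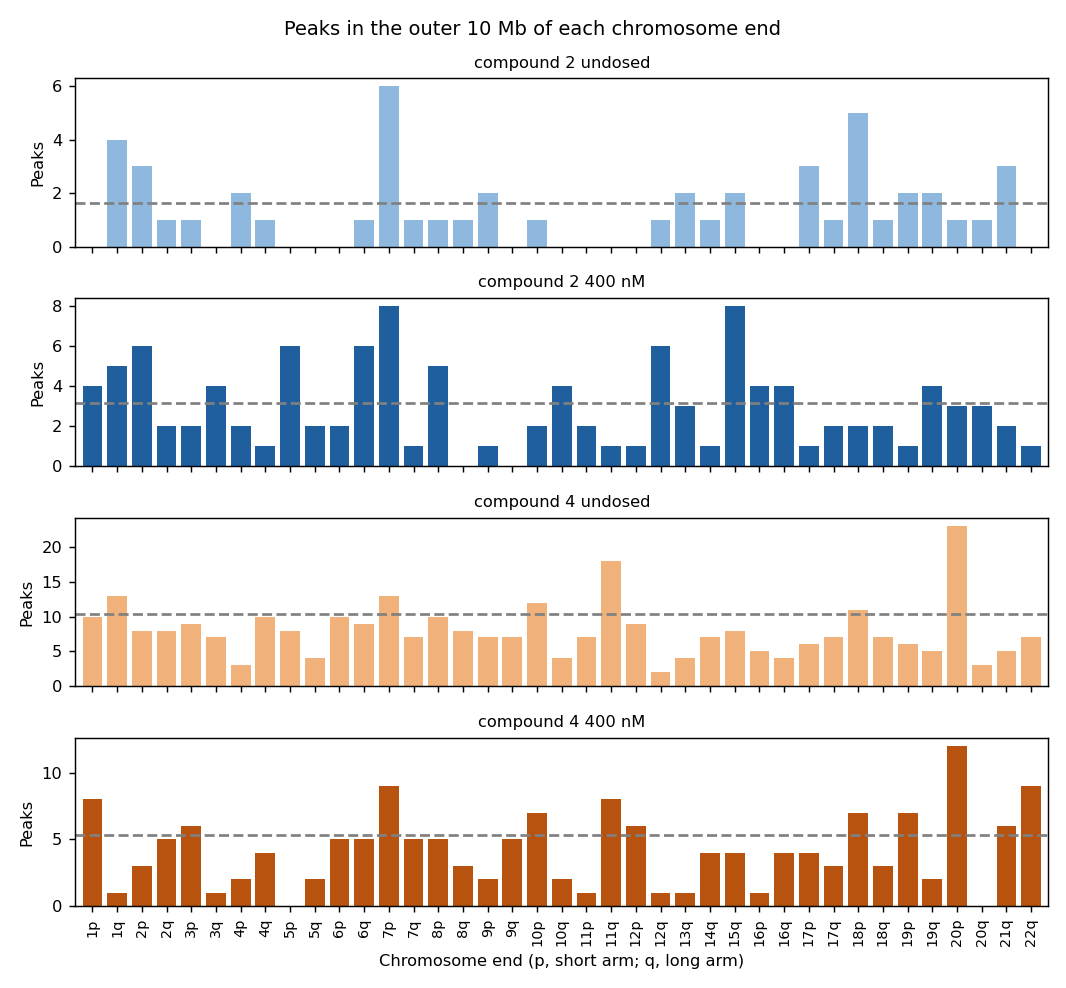
Number of peaks in the outer 10 Mb of each of the 39 chromosome ends, with 1 panel per list; the dashed line is the number that the list's autosomal total gives for 10 Mb of length. The 20p end has the most compound 4 peaks (23 and 12, though its 8 merged loci at 400 nM equal those of 7p and 22q) and the 7p end is above the line in all panels.

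Taken chromosome by chromosome, the share of peaks near the ends was below the share of that chromosome's length on 17 of 22 autosomes in the undosed and 18 of 22 in the 400 nM compound 4 list. It was lower on 13 of 22 for undosed and on 10 of 22 for 400 nM compound 2. On chromosome 16 the compound 4 shares were 9.89% (9 of 91) and 6.94% (5 of 72), where the ends are 22.1% of length. On chromosome 12 they were 6.92% (11 of 159) and 8.33% (7 of 84), against 14.9%. Chromosomes 21 and 22 were above their share of length in both compound 4 lists. Chromosome 22 had 25.9% (7 of 27) and 33.3% (9 of 27) against 19.5%, and chromosome 21 had 20.83% (5 of 24) and 42.9% (6 of 14) against 20.78%, the first of these being almost the same as length.

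With 20p counted, short arms held somewhat more than their part of the compound 4 end peaks, in a comparison added after the counts were seen. Short-arm ends are 17 of the 39 ends (43.6%). They had 157 of 311 undosed compound 4 end peaks (50.5%, 44.8 to 56.2%), or 9.24 per short-arm against 7 per long-arm end, and 85 of 163 at 400 nM (52.1%, 44.2 to 60.0%), or 5 against 3.55. The 20p end alone held 23 of these 157 undosed and 12 of these 85 400 nM peaks, and the shares without it were not computed. The excess can therefore not be called a trait of short arms in general. In merged loci the shares were 49.6% (43.64 to 55.7%) undosed and 52.5% (43.88 to 61.0%) at 400 nM, with lower limits barely above 43.59%. At 5 Mb the shares of peaks were as high, 51.7% (43.3 to 60.0%) of 147 undosed and 54.4% (42.8 to 65.7%) of 79 400 nM peaks, but the wider intervals reached 43.6%. At 20 Mb the shares were close to that of length, with 44.4% (40.8 to 48.1%) and 44.6% (39.6 to 49.8%). For compound 2 the shares were 54.0% (39.3 to 68.2%) undosed and 45.6% (36.3 to 55.2%) at 400 nM, with intervals that include 43.6%.

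The authors' peak score, whose scale is not stated, was used to rank peaks within their own list. Peaks near the ends were spread over the whole range of ranks. In the undosed compound 4 list 175 of 311 (56.3%, 50.6 to 61.9%) were in the upper 50% of autosomal peaks, slightly above the 50% that the list as a whole has. The interval reached 50% when loci were counted (55.7%, 49.7 to 61.6%) and at 20 Mb (52.7%, 49.0 to 56.4%). The other lists gave 92 of 163 (56.4%, 48.5 to 64.2%) for 400 nM compound 4, 60 of 114 (52.6%, 43.1 to 62.1%) for 400 nM compound 2 and 29 of 50 (58.0%, 43.2 to 71.8%) for undosed compound 2, beside 50%, 50% and 49.9% of all their autosomal peaks. Undosed compound 4 had a median score of 58.5 near the ends and 54.2 elsewhere on the autosomes, and its 400 nM list 35.2 and 31.4. For compound 2 the medians were 46.3 and 44.2 (undosed) and 26.7 and 26.4 (400 nM), and scores are not comparable between lists.

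The strongest end region of compound 4 lay in 1p36.22, 9.28 Mb from the end of chromosome 1. The undosed list gives the interval chr1:9283113-9283837 there under both rank 3 (score 862) and rank 12 (score 523), and the 400 nM list has peaks of rank 4 (chr1:9283276-9283590, score 227) and rank 8 (chr1:9283524-9283831, score 201) inside it. The other end regions among the 5 highest of the undosed list were in 10p15.3 (chr10:2126402-2126607, rank 49), 19p13.3 (chr19:3299349-3299537, rank 57) and 20p13 (chr20:4099047-4099282, rank 63). At 400 nM the places were taken by a pair of overlapping peaks in 20p13 (chr20:4098928-4099531 and chr20:4099127-4099730, ranks 37 and 43) and 1 in 10p15.3 (chr10:2126226-2126829, rank 67). Each of these compound 4 peaks overlapped a peak of the other compound 4 list, and none overlapped a compound 2 peak of the list with the same dose label. High-scoring peaks elsewhere often did the first as well. Among other autosomal peaks in the upper 50% by score, 48.2% undosed and 79.2% at 400 nM overlapped the other compound 4 list. Over all autosomal compound 4 peaks, 1.86% undosed and 0.195% at 400 nM overlapped compound 2.

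Of the 5 highest compound 2 end peaks of each list, some had a partner in the other compound 2 list and some did not. Over all autosomal peaks, 26.5% of undosed and 12.6% of 400 nM compound 2 peaks had one. In the undosed list they were in 19q13.42 (chr19:55414525-55415140, rank 6), 17q25.1 (chr17:74411852-74412467, rank 12), 17p13.3 (chr17:1185256-1185871, rank 14) and 18p11.31 (chr18:5307260-5307875 and chr18:5307461-5308076, ranks 17 and 22). Those in 17q25.1 and 17p13.3 had no 400 nM partner. At 400 nM they were in 12q24.33 (chr12:130134091-130134666, rank 14), 17p13.2 (chr17:3727385-3727960, rank 15), 15q26.2 (chr15:94594734-94595309, rank 38), 19q13.42 (chr19:55414458-55415033, rank 41) and 10q26.2 (chr10:127582606-127583181, rank 43). The peaks in 15q26.2 and 10q26.2 had no undosed partner. The region in 19q13.42 was in the 5 highest of both lists. Sequence was not used here, so the regions are given by position alone.

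Compound 4 peaks near chromosome ends were found in the other list of their compound more often than peaks elsewhere. At 400 nM, 106 of 163 (65.0%, 57.2 to 72.3%) overlapped an undosed compound 4 peak by at least 1 bp, against 723 of 1378 other autosomal peaks (52.5%) and 53.8% of all autosomal peaks. The difference was 12.6 points (Newcombe 95% interval 4.53 to 19.9). In the undosed list 106 of 311 (34.1%, 28.8 to 39.6%) overlapped a 400 nM peak, against 735 of 2697 (27.3%) and 28.0% of the whole list, a difference of 6.83 points (1.50 to 12.5). These counts describe the same overlaps from either list and are not independent of each other.

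The size of that difference moved with peak score and with merging. Among peaks ranked in the upper 50% it was 6.67 points (-2.37 to 13.2) at 400 nM and 4.91 points (-2.94 to 12.6) undosed. Among those in the lower 50% it was 11.5 points (0.516 to 23.5) at 400 nM and 2.69 points (-1.47 to 8.92) undosed. After merging within 1 kb it was 10.1 points (1.29 to 18.4) at 400 nM and 5.18 points (-0.133 to 11.0) undosed. With ends of 5 Mb both intervals included 0, at 8.67 points (-2.64 to 18.9) for 400 nM and 5.65 points (-1.65 to 13.8) for undosed, and with ends of 20 Mb the undosed one did (2.81 points, -0.892 to 6.66). Undosed compound 4 peaks near the ends also ranked somewhat higher, as given above, while the interval for 400 nM compound 4 included 50%. The part of rank in the overlap was not tested beyond this division into upper and lower 50%. For compound 2 the shares were 16 of 50 (32.0%, 19.5 to 46.7%) near the ends against 110 of 425 (25.9%) elsewhere in the undosed list, and 16 of 114 (14%, 8.24 to 21.8%) against 99 of 800 (12.4%) at 400 nM. Over all autosomal compound 2 peaks they were 26.5% and 12.6%. Both differences, 6.12 points (-5.94 to 20.5) and 1.66 points (-4.10 to 9.50), had intervals that include 0.

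**Figure D4:**
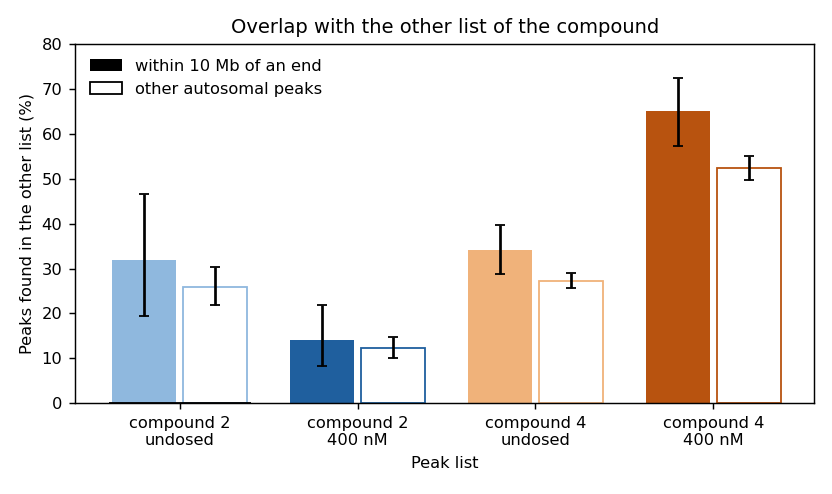
Percentage of peaks that overlapped a peak of the other list of the same compound, for peaks within 10 Mb of a chromosome end (filled bars) and for the other autosomal peaks (open bars) of each list; error bars are exact 95% intervals. The filled bar is at 65.0% against 52.5% for 400 nM compound 4, and the compound 2 bars overlap in their intervals.

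Merging the 638 end peaks of all lists within 1 kb gave 469 loci. Compound 4 alone accounted for 333 and compound 2 alone for 132, and 4 had peaks of both. Of the 337 compound 4 loci, 82 had peaks in both lists, and of the 136 compound 2 loci, 13 did. A locus in 3 or 4 lists was not found. These counts cover end peaks alone, and a matching count of loci over all autosomes is not given. In peaks over all autosomes, 10.7% of undosed and 0.328% of 400 nM compound 2 peaks overlapped the other compound. For compound 4 these shares were 1.86% and 0.195%. Overlap with the other list of the compound was 28.0% and 53.8% for compound 4, and 26.5% and 12.6% for compound 2.

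The compound 4 loci in both lists with the best ranks, after those in 1p36.22, 20p13 and 10p15.3 described above, were in 19p13.3 (chr19:3299184-3299990, best ranks 57 undosed and 70 at 400 nM) and 21q22.3 (chr21:43155888-43156709, ranks 115 and 99). Next came 15q26.2 (chr15:96823828-96824431, ranks 122 and 86) and 6p25.1 (chr6:7025870-7026665, ranks 126 and 146). The end of 20p had 2 more such loci among the first 12, at chr20:316536-317345 (ranks 152 and 95) and chr20:2662690-2663303 (ranks 98 and 172). The 12 were ordered by the poorer of their ranks.

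Among the 13 compound 2 loci in both lists, the best by the poorer rank were in 19q13.42 (chr19:55414458-55415236, ranks 6 undosed and 41 at 400 nM), 12q24.33 (chr12:130134091-130134709, ranks 49 and 14) and 15q26.2 (chr15:98026447-98027126, ranks 85 and 159). They were followed by 17p13.2 (chr17:3727385-3728008, ranks 210 and 15) and 7p22.1 (chr7:5900037-5900652, ranks 29 and 239). The other members were in 4p16.1, 7p21.3, 18p11.31, 13q34, 1q43, 20q13.2, 1q44 and 6q27. At the last of these the ranks were 223 of 486 and 713 of 923, the poorest 400 nM rank of the 13.

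The compounds met at 4 loci near chromosome ends, and all of them were between the undosed lists. They were in 20p13 (chr20:121845-122670, best ranks 292 for compound 2 and 1415 for compound 4), 7p21.3 (chr7:8494458-8495251, ranks 349 and 1376), 15q26.2 (chr15:95592375-95593041, ranks 392 and 1651) and 2p25.1 (chr2:9736078-9736693, ranks 478 and 2766). The compound 2 ranks lie in the lower part of its list of 486 peaks. Those of compound 4, from 1376 to 2766 of 3074, run from near the middle of its list to the lower part. In peaks, 4 of 50 undosed compound 2 end peaks (8%, 2.22 to 19.2%) overlapped an undosed compound 4 peak, against 10.7% of all autosomal peaks of that list. Counted from compound 4, 5 of 311 (1.61%, 0.524 to 3.71%) did so, against 1.86%. At 400 nM no end peak overlapped the other compound, 0 of 114 for compound 2 and 0 of 163 for compound 4, which allows shares of up to 2.63% and 1.84% by a limit of 3 counts, or 3.18% and 2.24% by the upper end of the exact interval. The shares over all autosomal peaks, 0.328% and 0.195%, are below those limits.

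Loci of several peaks of 1 list were found near the ends and elsewhere, with intervals of the difference that include 0 in each list. Of the merged loci near the ends, 30 of 280 (10.7%) of the undosed and 24 of 139 (17.3%) of the 400 nM compound 4 loci held more than 1 peak, against 221 of 2468 (8.95%) and 157 of 1214 (12.9%) of the others. The differences were 1.76 points (-1.57 to 6.06) and 4.33 points (-1.41 to 11.7). For compound 2 they were 6 of 44 (13.6%) against 54 of 362 (14.9%) undosed, and 9 of 105 (8.57%) against 49 of 712 (6.88%) at 400 nM, with differences of -1.28 points (-9.56 to 12.2) and 1.69 points (-2.83 to 8.80). No locus near an end had more than 3 peaks of a list, while elsewhere the 400 nM compound 2 list had up to 8 and the 400 nM compound 4 list up to 6. Every compound 2 end peak had the usual width of its list, 616 bp undosed and 576 bp at 400 nM. Among compound 4 end peaks, 297 of 311 were 570 bp (undosed) and 160 of 163 were 604 bp (400 nM).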

How the data were processed

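The authors deposited 4 peak lists, on hg19 per the submitters' processing notes, each with a score per peak whose scale and normalization are not stated. The submitters' processing notes name HOMER, Bowtie 1.0 and CASAVA 1.8.2. Roles, settings, use of the input and any pooling of libraries before peak finding: not given in the sources used here. The 400 nM lists were taken as 1 list per group of 2 libraries by name, while undosed lists belong to no group. Compounds 5 and 6 and the input were not analysed here.

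Printed starts count bases from 1, the files' BED starts being taken as 0-based. Chromosome lengths came from GenomeInfoDb 1.38.1 and bands from circlize 0.4.16. An end region was 10 Mb long, and a peak belonged to it by its midpoint. Shares have exact 95% intervals and differences have Newcombe intervals from Wilson limits; no p-value was computed, since peaks are not replicates. A limit behind a count of 0 is 3 counts. A share was read as above or below its reference where its interval did not include it. Peaks and loci were merged within 1 kb, also within 100 kb as an alternative. Overlap meant at least 1 bp. Functions were tested on simulated data. Whether the libraries of a group are separate cultures is not stated.

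The end regions and the comparisons were chosen with earlier results of these data known. The peaks named were the 5 highest-scoring end peaks of each list, the nearest to an end, those next to the 10 Mb limit, those overlapping the other compound, and the 5 ends with the most peaks; loci in both lists of a compound were named after their values were seen. No genome of build hg19 was used, so sequence, genes and assembly gaps were not examined. Software was pandas 2.3.3, scipy 1.17.1, numpy 2.4.6 and matplotlib 3.10.9 under Python 3.11.15.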

Additional observations from a re-analysis of the deposited data

Results flagged for a closer look

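Peaks near the ends of chromosomes X and Y are outside the autosomal comparison, and 3 of their counts were above the limit of 3 counts. On chromosome X, 9 of 50 peaks of the undosed compound 4 list (18%) and 9 of 30 of its 400 nM list (30%) lay within 10 Mb of an end, where the ends are 12.9% of the chromosome. On chromosome Y, 5 of 16 undosed compound 4 peaks (31.2%) did so, where the ends are 33.7% of the chromosome. The smaller counts were 2 of 11 undosed and 1 of 5 400 nM compound 2 peaks on X (18.2% and 20%). On Y they were 3 of 4 for 400 nM compound 2 and 3 of 10 for 400 nM compound 4. No interval was computed for the shares on X and Y, so none is shown to differ from length. Over all autosomes both compound 4 shares were below the share of length, and the difference between X and the autosomes was not tested.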

How the results depend on the processing

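No paired analysis was possible because each group has 1 peak list and no values per library, which also means that no library could be left out; chromosomes were left out in turn instead. Of 133 other alternative values for 24 results, 101 kept their direction and their side of the reference. Compound 4 stayed below length in both lists under every setting tried, but at 400 nM its interval reached 1 for the upper 50% by score (0.883-fold), at 20 Mb (0.918-fold) and in dark bands (0.817-fold). The undosed compound 2 interval lay wholly below 1 at 5 Mb (0.591-fold), over mapped bands (0.737-fold), away from centromeres (0.773-fold) and without acrocentric chromosomes (0.726-fold). The 400 nM compound 2 value was 1.004-fold after merging within 100 kb.

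At 400 nM, compound 4 minus compound 2 had an interval below 0 after merging within 100 kb (-3.02 points) and away from centromeres (-3.25 points). In the undosed lists that difference was 0.887 points at 5 Mb and 0.324 at 20 Mb, opposite in sign to the 10 Mb value. For compound 4, 400 nM minus undosed was -0.0595 points after merging within 100 kb. The overlap difference of undosed compound 4 had an interval including 0 after merging within 1 kb (5.18 points), in the upper 50% (4.91) and lower 50% (2.69) by score, at 5 Mb (5.65) and at 20 Mb (2.81). That of 400 nM compound 4 did so in the upper 50% (6.67) and at 5 Mb (8.67). For compound 2 it changed sign in the lower 50% of the undosed list (-11.8) and the upper 50% of the 400 nM list (-0.210).

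The share of end peaks in the upper 50% by score was 49.1% at 5 Mb for 400 nM compound 2. For undosed compound 4 it was 55.7% after merging within 1 kb and 52.7% at 20 Mb, with intervals that include 50%. At 20 Mb the light-band share of 400 nM compound 2 was 45.1%, below that of length. The short-arm share at 5 and 20 Mb was 40.4% and 42.6% for 400 nM compound 2, 51.7% and 44.4% for undosed compound 4, and 54.4% and 44.6% for 400 nM compound 4. For none of these was the cause tested.

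Leaving out 1 chromosome at a time gave 0.709-fold (without chromosome 7) to 0.822-fold for undosed compound 2 and 0.869-fold to 1.01-fold (without chromosome 10) for 400 nM compound 2. The undosed compound 2 interval lay wholly below 1 in 8 of the 22 cases, without chromosome 2, 7, 13, 15, 17, 18, 19 or 21. Compound 4 minus compound 2 ranged from -3.18 (without chromosome 10) to -1.18 points (without chromosome 15) at 400 nM and from -0.973 to 0.605 points undosed, where the sign turned without each of the same 8 chromosomes and the interval included 0 throughout. For compound 4, 400 nM minus undosed ranged from -0.0262 to 0.510 points. Depth is unknown, so a region without a peak cannot be told from one covered too thinly.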
